A study of Mus musculus with 12 samples.

Results

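The genes described here encode the factors that load the cohesin ring onto chromatin, release it, acetylate and deacetylate it, and hold it at domain boundaries. They are *Nipbl*, *Mau2*, *Wapl*, *Pds5a*, *Pds5b*, *Esco1*, *Esco2*, *Hdac8*, and *Ctcf*, 9 of the 46078 genes in the counts, and they were chosen by symbol for these roles. Each was matched through 1 Ensembl identifier, and all 9 had enough counts to be tested in each comparison.

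Cohesin is a ring of Smc1, Smc3, Rad21, and a Stag subunit. Nipbl and Mau2 form the loader that places the ring on DNA and drives loop extrusion, and Wapl opens the ring with the help of the Pds5 proteins. Esco1 and Esco2 acetylate Smc3, which protects the ring from Wapl, and Hdac8 removes this acetyl group so that the ring can be used again. CTCF binds DNA through zinc fingers and stops the moving ring, which places the anchors of chromatin loops and the borders of topological domains. Cohesin genes are recurrently mutated in myeloid malignancy, and in blood stem cells the complex takes part in the balance between self-renewal and differentiation.

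The libraries came from hematopoietic stem and progenitor cells of C57BL/6 mice, called LSK cells after their lineage-, Sca-1+, c-Kit+ surface. The cells carried a GFP-marked lentivirus with an shRNA against luciferase (shLuci, the control) or against *Rad21* (shRad21), and 3 libraries were made per group. In the culture experiment, infected cells were kept in culture for 3 d and GFP+CD48-Sca-1+ cells were sorted. For the in vivo experiment, LSK cells that carried GFP were recovered from lethally irradiated recipients, 3 mo after transplantation by the labels and later by the text of the study. All 4 groups therefore carried a lentivirus and had been cultured for its delivery. The culture libraries were made with a TruSeq kit and the in vivo libraries with SMART-Seq v4 followed by Nextera XT, and each experiment was sequenced in a lane of its own. Which of several *Rad21* shRNAs was used, and whether cells of several mice were pooled, is not given in the sources used here. The labels do not say that replicates came from separate animals or cultures, so the p-values measure the spread between these libraries, which may be technical.

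Each library held between 15235129 and 29846689 counts. *Rad21*, the targeted gene, fell to 35% of the control mean in culture and to 37.7% in vivo, and no shRad21 library overlapped a shLuci library of its experiment. *Ly6a* (Sca-1), used in both gates, and *Kit* (c-Kit), used for LSK cells, were present in all groups, with lowest group means of 144 and 279 CPM (counts scaled to the size of the library, the usual unit of an RNA-seq level), although *Kit* fell in shRad21, from 741 to 279 CPM in culture and from 894 to 676 CPM in vivo. *Cd48* had a mean of 35.8 CPM in the cultured control cells against 258 CPM in vivo. Cell type markers moved with the knockdown. Of 12 stem and progenitor markers, 6 rose and 2 fell in culture, and 6 rose and 3 fell in vivo, by the edgeR test described below. Of all genes tested, 14.2% passed in culture and 11% in vivo. The summed level of 12 mature myeloid markers was between 227 and 309 CPM in shLuci and between 187 and 204 CPM in shRad21 in culture, and between 2110 and 2674 CPM against between 1742 and 1881 CPM in vivo. For 12 lymphoid markers the sums were between 28.8 and 29.0 CPM against between 19.1 and 23.2 CPM in culture. In vivo they were between 159.9 and 403.4 CPM against between 134.1 and 209.7 CPM, with overlap. *Cd79b* made up most of the culture sums (group means of 26 and 19 CPM). *Jchain* was the largest part in vivo (196 and 115 CPM). The lymphoid markers *Ms4a1* and *Cd8a* and the mature myeloid marker *Ly6g* were at 0 in all culture libraries. The sum over 12 erythroid and megakaryocyte markers was higher in shRad21 in vivo, between 525 and 703 CPM against between 403 and 421 CPM, and overlapped in culture (between 682 and 1012 CPM against between 735 and 852 CPM). The part of these cells in the values below was not tested.

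The first question was whether the factors that act on the ring change when the ring itself is depleted. In culture, 1 of the 9 genes passed the test at an adjusted p under 0.05, *Ctcf*, which was 1.20-fold higher in shRad21 than in shLuci. This is 11.1% of the genes, against 14.2% of the 15543 genes tested with edgeR (quasi-likelihood test, p-values adjusted by the Benjamini-Hochberg method). With same-numbered libraries paired in the fit, 2 of the 9 passed, *Esco1* and *Ctcf*, against 20.5% of all genes. In vivo, 0 of the 9 passed, against 11% of 15938 genes tested. DESeq2 also called 0 in vivo, and 1 gene, *Esco2*, had an unadjusted p under 0.05. The log2 fold changes ranged from -0.088 to 0.26 in culture and from -0.27 to 0.17 in vivo, where *Rad21* changed by -1.52 and -1.43. The 95% intervals, each set for its gene alone, lay between 0.82-fold and 1.38-fold in culture and between 0.70-fold and 1.32-fold in vivo. They hold for the spread between these libraries and are not joint bounds for the 9 genes. The medians of the 9 log2 fold changes were 0.11 and 0.0071, and those of all genes tested were -0.0039 and -0.0019. In these bulk libraries, fewer cells of a type and less RNA per cell cannot be told apart.

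**Figure D1:**
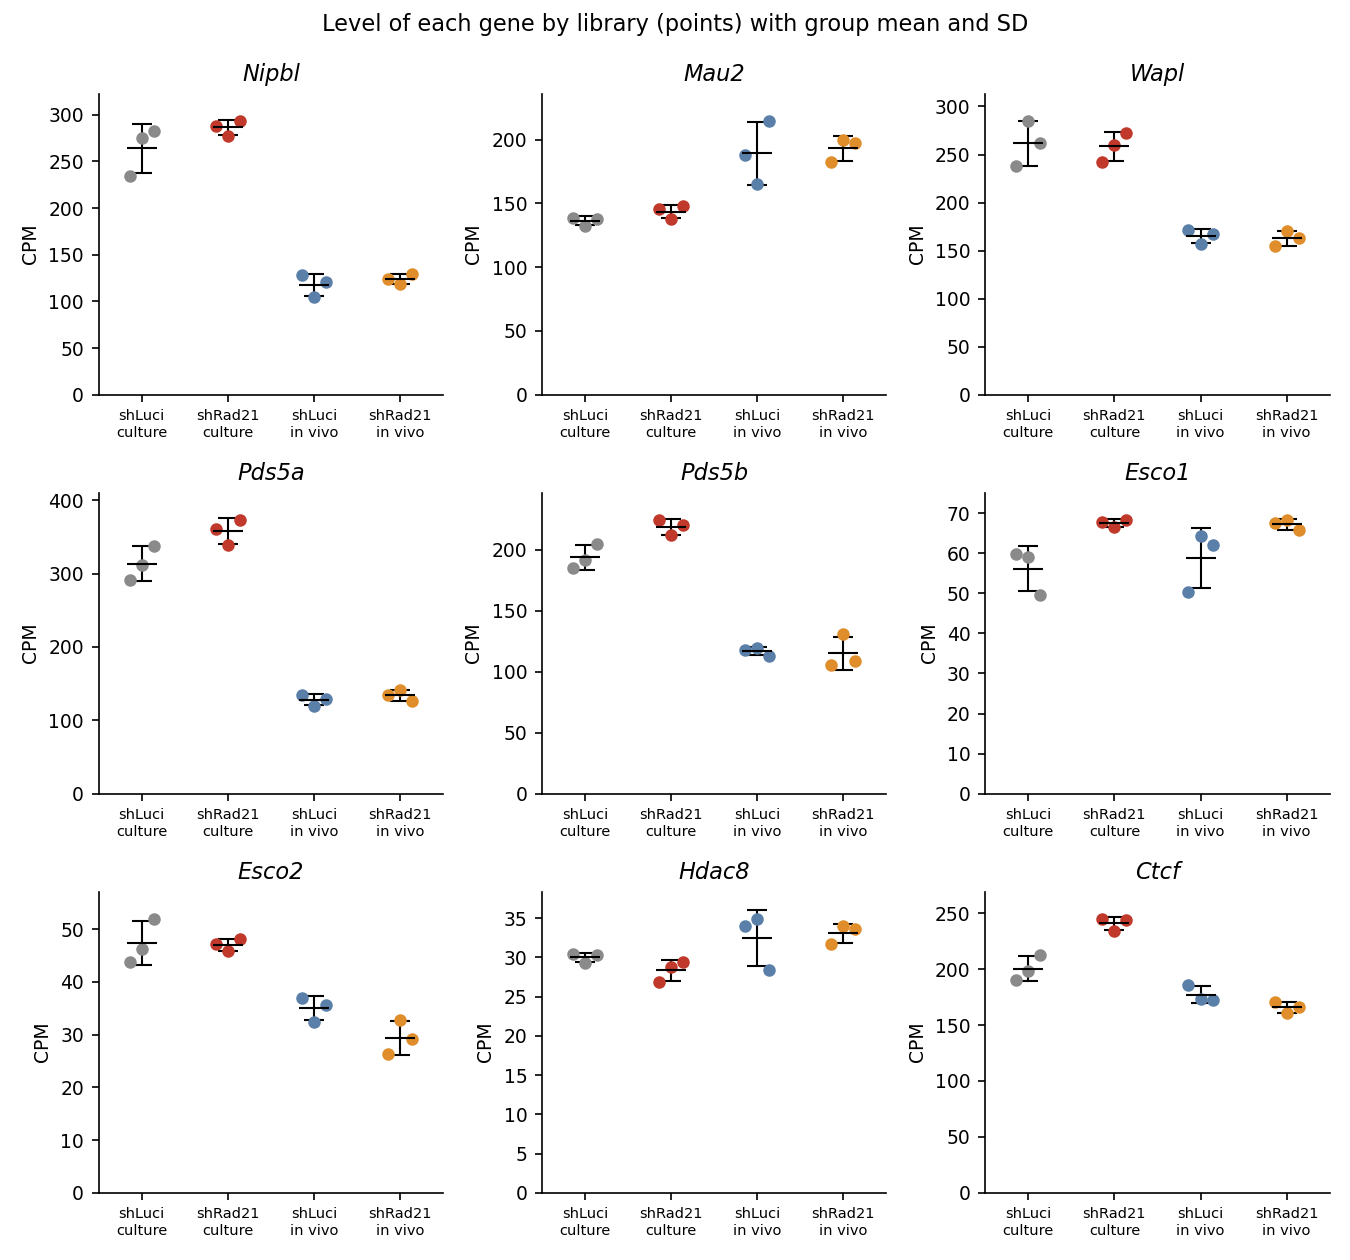
CPM of each gene (y axis, from 0) in the 12 libraries, grouped by shRNA and experiment (x axis). Points are libraries, and bars are group means with SD (n = 3). The *Ctcf* points of shRad21 in culture, between 234 and 245 CPM, lie above the shLuci points, and the larger steps lie between culture and in vivo, as for *Pds5a* and *Nipbl*.

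A second measure was whether the 3 libraries of a knockdown group all lay on the same side of the 3 controls. In culture this was so for 4 genes, *Pds5a*, *Pds5b*, *Esco1*, and *Ctcf*, all of them higher in shRad21. This is 44.4% of the 9, against 31.9% of the genes tested. In vivo it was so for 2 genes, *Esco1*, which was higher, and *Ctcf*, which was lower. This is 22.2% of the 9, against 28.3% of the genes tested.

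**Figure D2:**
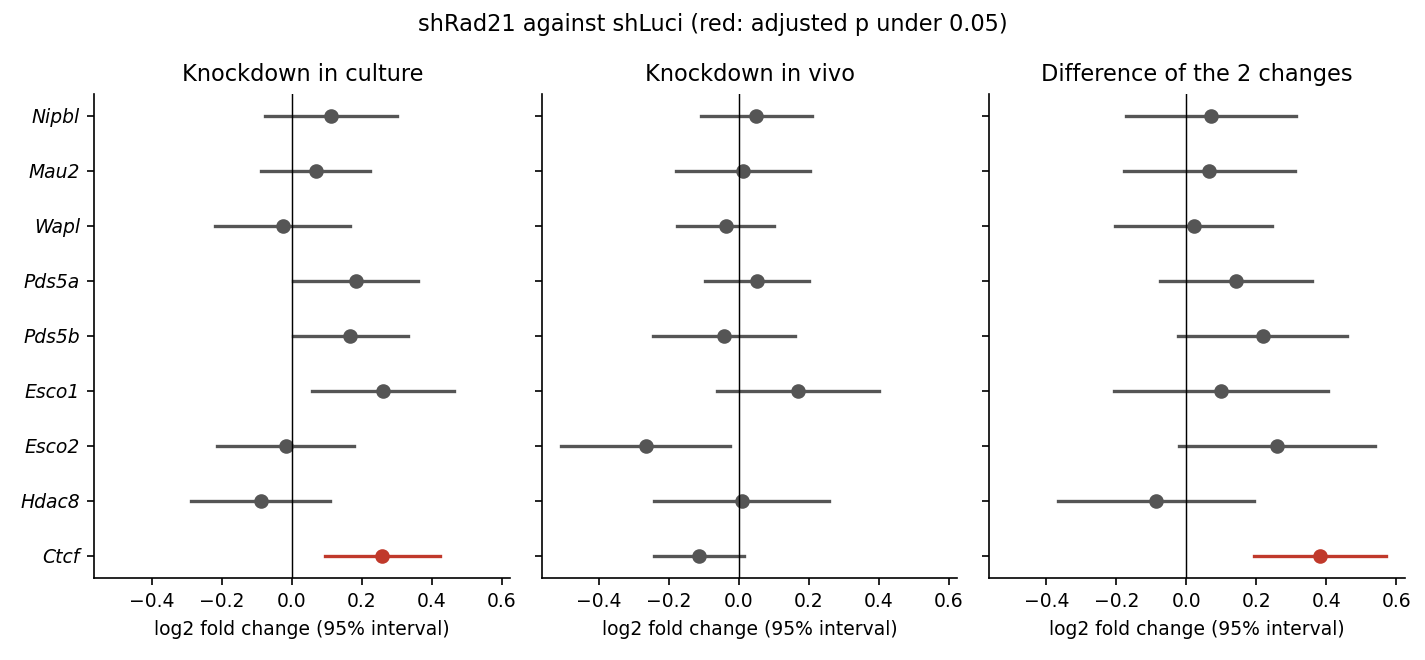
Log2 fold changes of shRad21 against shLuci (x axis) with 95% intervals for the 9 genes (y axis) in culture, in vivo, and as the change in culture minus the change in vivo. Red marks an adjusted p under 0.05. Only *Ctcf* is red, at 0.26 in culture and at 0.38 for the difference, and the in vivo interval of *Esco2* ends just below 0.

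*Nipbl*, the large HEAT-repeat subunit of the loader, lies on the minus strand at chr15:8290617-8444463 (GRCm38). Its CPM in culture was 234, 275, and 283 in the shLuci libraries and 288, 278, and 293 in the shRad21 libraries. The groups overlapped, and the first shLuci library was the lowest of the 6. In vivo the values were 128, 105, and 121 CPM in shLuci and 124, 118, and 129 CPM in shRad21, again with overlap. The log2 fold changes were 0.11 ± 0.086 (SE, adjusted p = 0.465) in culture and 0.049 ± 0.071 (SE, adjusted p = 0.750) in vivo, by edgeR's quasi-likelihood test. The intervals reached from 0.95-fold to 1.23-fold and from 0.93-fold to 1.16-fold. Without the first shLuci library, the log2 fold change of *Nipbl* in culture was 0.034.

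*Mau2*, the partner that stabilizes Nipbl, lies on the minus strand at chr8:70016123-70042734. In culture it had 139, 133, and 138 CPM in shLuci and 146, 138, and 148 CPM in shRad21. The lowest shRad21 library lay within the range of the controls. In vivo it had 188, 165, and 215 CPM in shLuci and 182, 200, and 197 CPM in shRad21, so that the 3 shRad21 values fell inside the wider range of the controls. Its log2 fold changes of 0.068 ± 0.071 (SE, adjusted p = 0.607) and 0.012 ± 0.085 (SE, adjusted p = 0.958) were within the spread between replicates by the same test.

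*Wapl*, the release factor, lies on the plus strand at chr14:34673928-34747983. It had 238, 285, and 262 CPM in the cultured shLuci libraries and 242, 260, and 273 CPM in the shRad21 libraries, and 172, 157, and 167 CPM against 155, 171, and 163 CPM in vivo. The groups overlapped in both experiments, and the means differed by less than 1 SD. With log2 fold changes of -0.026 ± 0.087 (SE, adjusted p = 0.896) and -0.038 ± 0.062 (SE, adjusted p = 0.777) by edgeR, *Wapl* had intervals from 0.86-fold to 1.12-fold in culture and from 0.89-fold to 1.07-fold in vivo.

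The Pds5 proteins are paralogs that bind the ring and serve both release and acetylation. *Pds5a* lies on the minus strand at chr5:65605721-65698273, and *Pds5b* on the plus strand at chr5:150673739-150810690. *Pds5a* in culture had 291, 311, and 338 CPM in shLuci and 361, 338.3, and 373 CPM in shRad21. The groups were separate, but the highest control (338.2 CPM) and the lowest knockdown library were almost level. *Pds5b* had 185, 192, and 205 CPM in shLuci and 225, 212, and 220 CPM in shRad21 in culture, also without overlap. Both genes had positive log2 fold changes, 0.18 ± 0.081 (SE) for *Pds5a* and 0.17 ± 0.074 (SE) for *Pds5b*, with unadjusted p of 0.0468 and 0.0447 and adjusted p of 0.178 and 0.173 by edgeR, so neither passed. In vivo, *Pds5a* had 135, 120, and 129 CPM in shLuci and 134, 141, and 127 CPM in shRad21, and *Pds5b* had 118, 120, and 113 CPM against 106, 131, and 109 CPM. These groups overlapped, and the log2 fold changes were 0.050 (adjusted p = 0.720) and -0.042 (adjusted p = 0.840). The difference between the experiments was 0.14 for *Pds5a* and 0.22 for *Pds5b*, with adjusted p of 0.539 and 0.344, so a difference was not shown. Without the third shLuci library of the culture, *Pds5a* passed the test in culture (adjusted p = 0.0496, log2 fold change 0.24).

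The acetyltransferases differ in timing. Esco1 acts throughout the cell cycle, and Esco2 acts in S phase, when sister chromatids are joined. *Esco1* lies on the minus strand at chr18:10566507-10610352, and *Esco2* on the minus strand at chr14:65819038-65833994. *Esco1* had 59.8, 58.9, and 49.7 CPM in cultured shLuci cells and 67.7, 66.5, and 68.3 CPM in shRad21. The 3 shRad21 values were close to each other and above all controls, of which the third was the lowest. In vivo, *Esco1* had 50.3, 64.3, and 62.0 CPM in shLuci and 67.6, 68.2, and 65.7 CPM in shRad21, again higher in each shRad21 library than in each control, with 1 low control library. The log2 fold changes were 0.26 ± 0.092 (SE, adjusted p = 0.0897) in culture and 0.17 ± 0.10 (SE, adjusted p = 0.374) in vivo by edgeR's quasi-likelihood test, and neither passed. In vivo the value was 0.054 without the first shLuci library and 0.26 without the second. With the replicate number as a block, which is a paired fit, *Esco1* passed in culture (log2 fold change 0.26, adjusted p = 0.0456), so that 2 of the 9 genes passed in place of 1. The share of all genes called rose as well, from 14.2% to 20.5%. The log2 ratios of same-numbered culture libraries were 0.18, 0.17, and 0.46.

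*Esco2* in culture had 43.8, 46.2, and 51.9 CPM in shLuci and 47.2, 45.9, and 48.1 CPM in shRad21. The knockdown values lay inside the range of the controls. In vivo it had 36.9, 32.5, and 35.6 CPM in shLuci and 26.3, 32.8, and 29.2 CPM in shRad21. Here the second shRad21 library lay just above the lowest control, and the others lay below all controls. The log2 fold change was -0.018 ± 0.089 (SE, adjusted p = 0.936) in culture and -0.27 ± 0.11 (SE, adjusted p = 0.164) in vivo by edgeR, with a 95% interval in vivo from 0.70-fold to 0.98-fold. The change in culture minus the change in vivo was 0.26 ± 0.13 (SE, adjusted p = 0.330), so a difference between the experiments was not shown for *Esco2*. Cell cycle genes moved with the *Esco2* values in vivo: the summed level of 20 G2 and M genes was between 2941 and 3238 CPM in shLuci and between 2046 and 2508 CPM in shRad21. The sums over 20 S-phase genes overlapped, with between 4673 and 4950 CPM against between 4050 and 4931 CPM. The part of the cell cycle in the *Esco2* values was not tested.

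*Hdac8*, the Smc3 deacetylase, lies on the minus strand at chrX:102284639-102505359 and had the lowest CPM of the 9 genes in culture. It had 30.4, 29.3, and 30.3 CPM in shLuci and 26.9, 28.8, and 29.4 CPM in shRad21. The highest shRad21 library overlapped the lowest control by a small margin. In vivo the values were 34.0, 34.9, and 28.4 CPM against 31.7, 33.9, and 33.6 CPM, with the shRad21 libraries inside the range of the controls. The log2 fold changes of -0.088 ± 0.090 (SE, adjusted p = 0.60) and 0.0071 ± 0.11 (SE, adjusted p = 0.981) did not pass edgeR's test, and their intervals reached from 0.82-fold to 1.08-fold and from 0.85-fold to 1.20-fold. *Hdac8* counts were between 435 and 812 per library.

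*Ctcf*, the boundary factor, lies on the plus strand at chr8:105636568-105682922. It was the gene whose response differed between the experiments. In culture, *Ctcf* had 190, 199, and 212 CPM in shLuci (mean 200.5 ± 11.1, SD, n = 3) and 245, 234, and 244 CPM in shRad21 (241 ± 6.03). All shRad21 libraries were above all controls. In vivo it had 186, 173, and 173 CPM in shLuci (177 ± 7.72) and 170.3, 160.9, and 166 CPM in shRad21 (166 ± 4.67). Here all shRad21 libraries were below all controls, by a narrow margin. The log2 fold change was 0.26 ± 0.074 in culture (SE, 95% interval from 0.096 to 0.42, adjusted p = 0.0398) and -0.11 ± 0.058 in vivo (SE, interval from -0.24 to 0.015, adjusted p = 0.268) by edgeR's quasi-likelihood test. *Ctcf* rose in culture, and the fall in vivo did not pass.

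The change of *Ctcf* in culture minus that in vivo was 0.38 ± 0.088 on the log2 scale (SE, 95% interval from 0.19 to 0.57, adjusted p = 0.0223 by edgeR in a model of all 12 libraries). *Ctcf* was the only 1 of the 9 genes to pass this test (11.1%), against 4.67% of 17050 genes. The differences of the other 8 genes lay between -0.088 and 0.26, with adjusted p between 0.330 and 0.963. Both *Ctcf* calls were close to the threshold. The call in culture was lost when any culture library other than the third shLuci library was left out (adjusted p between 0.0921 and 0.115, log2 fold change between 0.23 and 0.30 over the 6 fits), and the call for the difference was lost in 6 of 12 such fits, without shLuci library 2 or any shRad21 library of the culture, or without shLuci library 1 or shRad21 library 3 in vivo (adjusted p between 0.0515 and 0.064). It was also lost without a filter on low counts (adjusted p = 0.091). Of the exonic bases of *Ctcf*, 7.61% also belong to genes on the opposite strand (*Agrp* and *Gm5914*), and the strand setting of the counting is not given in the sources used here, so reads from these stretches cannot be told apart. The same holds for 1.93% of the exonic bases of *Pds5a*, and for none of the other 7 genes.

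RefSeq promoter sequences (GRCm38.p6, 250 bases before to 50 after the transcription start) were found for 6 of the 9 genes. Those of *Ctcf*, *Pds5a*, and *Pds5b* are printed because they are the genes among these 6 with separate groups in culture. *Ctcf* is given on the plus strand at chr8:105636288-105636587, *Pds5a* on the minus strand at chr5:65698187-65698486, and *Pds5b* on the plus strand at chr5:150673577-150673876. Capitals mark matches on either strand to GGGCGG (the GC box of Sp1), CCAAT (NF-Y), CCGGAAG (ETS factors), GCGCATGCG (NRF1), TTTCCCGC (E2F), or AGGGGGC (part of the CTCF motif), none of which overlapped another here.
Ctcf: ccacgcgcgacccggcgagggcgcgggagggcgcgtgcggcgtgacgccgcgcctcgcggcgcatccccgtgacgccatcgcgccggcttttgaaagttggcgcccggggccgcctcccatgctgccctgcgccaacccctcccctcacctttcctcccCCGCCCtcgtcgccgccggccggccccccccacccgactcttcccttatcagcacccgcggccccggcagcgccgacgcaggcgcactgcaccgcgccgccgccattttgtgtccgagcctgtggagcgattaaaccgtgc
Pds5a: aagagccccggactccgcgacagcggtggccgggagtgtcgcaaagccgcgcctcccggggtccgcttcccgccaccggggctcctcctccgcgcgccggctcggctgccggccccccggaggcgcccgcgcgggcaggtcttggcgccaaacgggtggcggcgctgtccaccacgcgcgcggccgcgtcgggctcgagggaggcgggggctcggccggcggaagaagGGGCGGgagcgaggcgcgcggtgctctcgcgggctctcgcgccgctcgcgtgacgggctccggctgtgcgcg
Pds5b: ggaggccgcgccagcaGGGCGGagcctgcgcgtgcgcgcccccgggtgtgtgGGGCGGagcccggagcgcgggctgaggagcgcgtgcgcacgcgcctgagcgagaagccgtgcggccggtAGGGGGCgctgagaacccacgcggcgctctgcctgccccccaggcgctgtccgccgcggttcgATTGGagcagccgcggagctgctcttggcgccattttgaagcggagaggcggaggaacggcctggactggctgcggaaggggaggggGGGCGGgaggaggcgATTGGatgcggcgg
All 3 are rich in CpG dinucleotides, with 47 in *Ctcf*, 55 in *Pds5a*, and 41 in *Pds5b*, where the median over 32851 promoters of this length was 7. Each holds the GC box, which 35.7% of all promoters hold, and *Pds5b* has it 3 times. Only the *Pds5b* promoter among them holds CCAAT (37.4% of all promoters) and the CTCF letters (10.6%). The letters for ETS factors, NRF1, and E2F were in none of the 3, and are in 8.86%, 1.75%, and 1.07% of all promoters.

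The control cells gave the levels of the 9 genes in the absence of the knockdown. Per kb of exon (RPKM, the CPM divided by the merged exon length), *Ctcf* and *Wapl* were the highest in cultured shLuci cells, at 41.3 ± 2.29 and 39.5 ± 3.53 RPKM (SD, n = 3), and their ranges overlapped. *Nipbl* followed at 28.0 RPKM, *Pds5b* at 19.7, *Pds5a* at 16.2, *Mau2* at 14.9, *Esco1* at 11, *Esco2* at 7.12, and *Hdac8* at 6.20 RPKM. Of these neighbours, only *Pds5a* and *Mau2* had overlapping ranges. In vivo the order of levels was *Ctcf* at 36.5 RPKM, *Wapl* at 24.9, *Mau2* at 20.7, *Nipbl* at 12.5, *Pds5b* at 11.9, *Esco1* at 11.5, *Hdac8* at 6.71, *Pds5a* at 6.62, and *Esco2* at 5.27 RPKM. The ranges of *Nipbl*, *Pds5b*, and *Esco1* overlapped from neighbour to neighbour, as did those of *Hdac8* and *Pds5a*. By level per kb among 16976 genes, *Ctcf* was at percentile 91.1 in culture and 89.3 in vivo in the shLuci cells, whereas *Hdac8* was at 50 and 55.2.

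**Figure D3:**
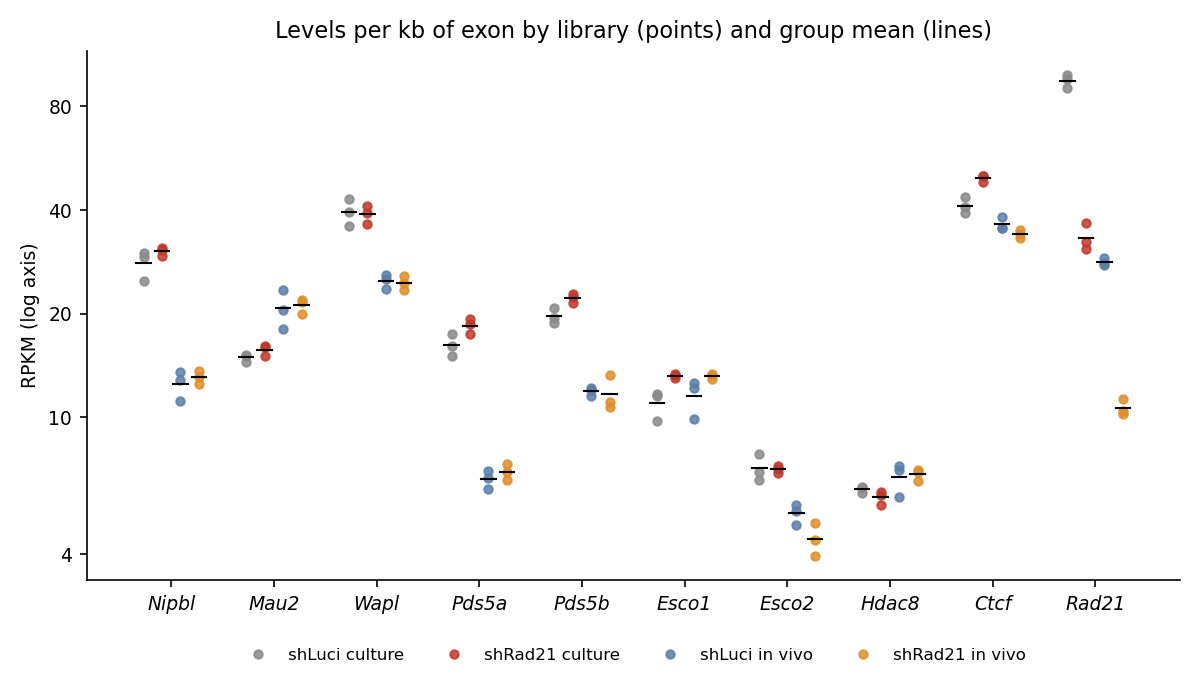
Levels per kb (RPKM, log axis) of the 9 genes and *Rad21* (x axis) in the 12 libraries (points, colored by group) with group means (lines). *Rad21*, at 95.1 RPKM in cultured control cells, is the highest there and falls to 33.3 RPKM in shRad21, below *Ctcf* and *Wapl*.

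Set against the 9 genes, *Rad21*, the target of the shRNA, moved down in the order of levels. *Rad21* stood above all 9 genes in cultured shLuci cells at 95.1 ± 4.36 RPKM (SD) and below *Ctcf* (49.6 ± 1.24) in cultured shRad21 cells at 33.3 ± 3.02 RPKM, where its range overlapped those of *Wapl* and *Nipbl*. In vivo, *Rad21* fell from 28.3 RPKM, second after *Ctcf*, to 10.7 RPKM, below *Pds5b*, whose range it overlapped. The RPKM of *Pds5a* rests on 19335 bp of merged exons from 14 annotated transcripts, so a shorter transcript in use would make its level per kb an underestimate.

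Between the experiments, 7 of the 9 genes differed in control cells (77.8%, against 74.2% of 17050 genes). *Pds5a* was 2.41-fold higher in culture than in vivo (log2 difference 1.27 ± 0.073, SE, adjusted p = 8.11e-10 by edgeR), *Nipbl* 2.20-fold (1.14, adjusted p = 8.547e-09), *Pds5b* 1.63-fold (0.70, adjusted p = 1.483e-06), *Wapl* 1.56-fold (0.64, adjusted p = 1.886e-06), and *Esco2* 1.33-fold (0.41, adjusted p = 0.0009955). *Mau2* went the other way, 0.71-fold of its in vivo level (log2 difference -0.50, adjusted p = 5.493e-05), so the subunits of the loader moved apart. *Ctcf* was 1.11-fold higher (log2 difference 0.15, adjusted p = 0.0383), a call that was lost with upper-quartile factors (adjusted p = 0.639) and that reversed with scaling by library size only (log2 difference -0.023, adjusted p = 0.751). By edgeR it was also lost in a fit of the shLuci libraries alone (adjusted p = 0.226). The same held without a filter (0.104) and with at least 10 counts in every library (0.0746). Of 12 fits without 1 library, 5 lost the call (adjusted p between 0.0523 and 0.118). *Esco1* (log2 difference -0.098, adjusted p = 0.395) and *Hdac8* (-0.14, adjusted p = 0.185) did not pass. Upper-quartile factors and scaling by library size only moved the median of all genes by -0.12 and -0.17. The setting, the sorting gate, the library kit, and the lane all differed between the experiments and cannot be told apart.

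Exon length moved with this difference. All 9 genes are longer than the median of 3640.5 bp, and 6 are longer than 6000 bp. Over all genes the median log2 difference of control cells, culture minus in vivo, was -0.16 for genes under 2000 bp, -0.30 from 2000 to 4000 bp, 0.0035 from 4000 to 6000 bp, and 0.45 above 6000 bp. *Pds5a*, *Nipbl*, *Pds5b*, and *Wapl* lay above the median of their length range, *Esco2* lay near it, and *Mau2*, with 9131 bp, lay 0.50 below 0 where genes of its length had a positive median. *Ctcf*, *Esco1*, and *Hdac8*, between 4839 and 5100 bp, lay in the range whose median was near 0. The part of the kit and of length in these differences was not tested.

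**Figure D4:**
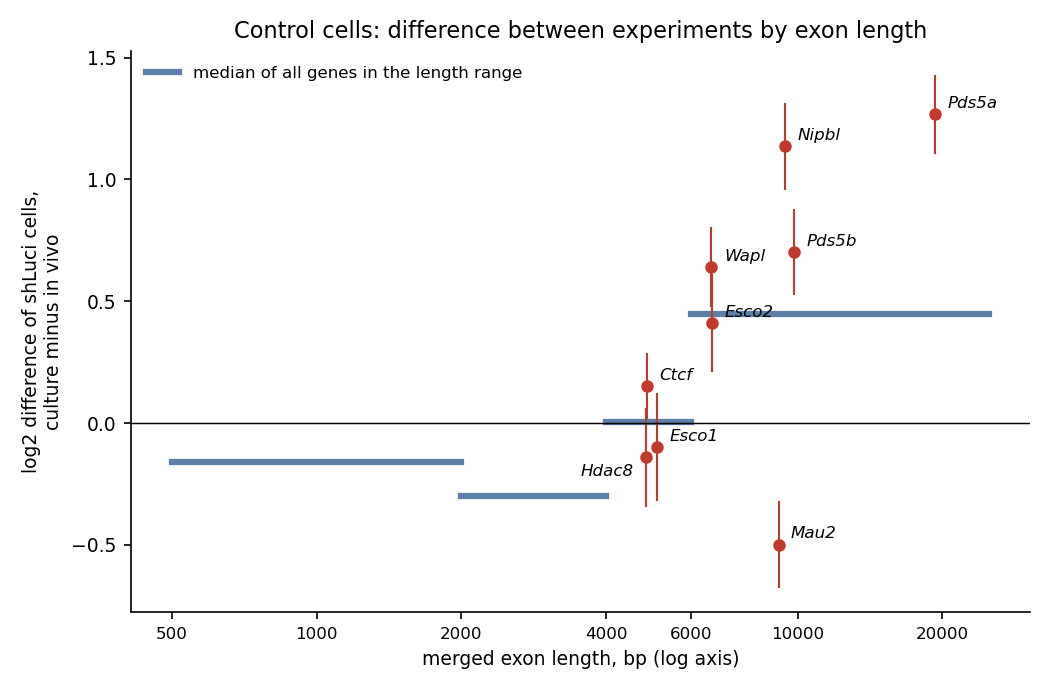
Log2 difference of the control cells, culture minus in vivo (y axis), against merged exon length in bp (log axis) for the 9 genes (red, with 95% intervals) and the median of all genes in 4 length ranges (blue lines, the outer ranges being open-ended). *Mau2* lies at -0.50, far below the median of 0.45 of genes above 6000 bp.

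The ratios within pairs of genes that act together are given per kb as a description, with no test. *Pds5a* to *Pds5b* was 0.82 in shLuci and 0.83 in shRad21 in culture, and 0.56 and 0.60 in vivo. *Nipbl* to *Mau2* was 1.88 and 1.93 in culture, and 0.61 and 0.62 in vivo. These ratios moved with the experiment and little with the knockdown. *Esco2* to *Esco1* was lower in shRad21 in both experiments, with ranges from 0.56 to 0.80 in shLuci and from 0.53 to 0.54 in shRad21 in culture, and from 0.39 to 0.56 and from 0.30 to 0.37 in vivo. The groups did not overlap in either experiment, by a narrow margin in culture. Those of *Esco1* alone did not overlap either, and the share of gene ratios that separate by group was not computed. *Nipbl* to *Wapl*, loader to release factor, had means of 0.71 and 0.78 in culture and of 0.50 and 0.53 in vivo, with overlapping ranges.

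Other genes of the cohesin pathway were counted by list, all with the same edgeR test. Over all genes tested, 14.2% passed in culture, 11% in vivo, and 4.67% for the difference between the experiments. Of 7 tested ring subunits, *Stag1*, an alternative Stag subunit, rose 2.12-fold in culture (adjusted p = 1.526e-05) and 1.28-fold in vivo (adjusted p = 0.0285), with a larger change in culture (difference 0.73 on the log2 scale, adjusted p = 0.00162). *Rad21* fell in both, and *Stag3*, a subunit best known from meiosis, fell in culture (log2 fold change -0.47, adjusted p = 0.0163). *Smc1b*, *Rad21l*, and the *Ctcf* paralog *Ctcfl* were too low to be tested. The medians over the ring subunits were 0.10 and -0.095. With the replicate block, *Stag2* also rose in culture, so that 2 ring subunits rose in place of 1. DESeq2 without a block called 4 ring subunits in culture, against 3 by edgeR. The ring subunits that passed in vivo went from 2 to 1 without the second or the third library of either group.

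Of 10 genes for the protection and cleavage of cohesion, 0 passed in culture by edgeR or DESeq2 (3 at an unadjusted p under 0.05) and 6 fell in vivo, with medians of -0.093 and -0.41. The in vivo falls included *Cdca5* (sororin, which keeps Wapl from acetylated cohesin, log2 fold change -0.49, adjusted p = 0.00399), the mitotic kinases *Plk1* (-0.49, adjusted p = 0.0074) and *Aurkb* (-0.50, adjusted p = 0.0120), and *Sgo2a*, a shugoshin (-0.57, adjusted p = 0.0190), of whose exonic bases 35% are shared with *Kctd18* on the opposite strand. *Cdca5* and *Plk1* also passed the test of the difference between the experiments (adjusted p = 0.0378 and 0.0299). In that test, 0 genes of this list passed without shLuci library 2 or shRad21 library 1 or 2 of the culture. The same held without shLuci library 1 or shRad21 library 1 or 3 in vivo.

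Of 12 genes that couple cohesion to replication, *Rfc2*, a clamp loader subunit, rose in culture (log2 fold change 0.34, adjusted p = 0.0349). In vivo, 3 fell, *Chtf18* (-0.38, adjusted p = 0.0132), *Rfc4* (-0.35, adjusted p = 0.0133), and *Tipin* (-0.30, adjusted p = 0.0472), and *Chtf8* rose (0.46, adjusted p = 0.0167), although 91.8% of the exonic bases of *Chtf8* overlap other genes on its strand and its value is uncertain. Among 10 partners at boundaries and enhancers, *Zfp143*, a zinc finger factor found at loop anchors, fell in culture (-0.29, adjusted p = 0.0493), and 0 passed in vivo by edgeR or DESeq2 (0 at an unadjusted p under 0.05). Of 14 condensin and Smc5/6 genes, *Nsmce1* rose in culture (0.44, adjusted p = 0.0499) and fell in vivo (-0.29, adjusted p = 0.0408), a difference of 0.73 (adjusted p = 0.0207). *Smc4*, *Ncaph*, and *Ncaph2* of the condensin complexes also fell in vivo, with log2 fold changes of -0.28, -0.51, and -0.26. In culture, 1 of the 12, 1 of the 10, and 1 of the 14 genes of these lists passed. Each is a smaller share than the 14.2% of all genes tested. In vivo, 4 of the 12, 0 of the 10, and 4 of the 14 passed, against 11% of all genes tested.

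Cell cycle genes were counted because *Esco2* and the establishment factors are used in S phase. Of 20 S-phase genes, 0 passed in culture by edgeR or DESeq2 (2 at an unadjusted p under 0.05, median 0.061), 1 rose there with the replicate block (*Ccne2*), and *Tyms*, *Cdt1*, and *Mcm7* fell in vivo (log2 fold changes -0.30, -0.31, and -0.26, median of the list -0.20). Of 20 G2 and M genes, 0 passed in culture by edgeR or DESeq2 (1 at an unadjusted p under 0.05, median -0.039), and 18 fell in vivo (median -0.44), led by *Kif23* (-0.62), *Ube2c* (-0.55), *Top2a* (-0.60), and *Cdk1* (-0.45). By edgeR, *Cdk1* alone of the G2 and M genes passed the test of the difference between the experiments (adjusted p = 0.0247), and DESeq2 called 8 of them. The in vivo counts were lower without the third shRad21 library: 7 of the G2 and M genes, 2 of the protection and cleavage genes, and 0 of the S-phase and of the condensin and Smc5/6 genes passed by edgeR. The share of all genes called in vivo fell as well, from 11% to 5.76%. Leaving out the first shRad21 library also left 0 S-phase genes. Without the second shLuci library in vivo, 0 of the replication-coupled genes passed. The single calls in culture of *Rfc2*, *Zfp143*, and *Nsmce1* were each lost when any of at least 4 of the 6 culture libraries was left out. For the difference between the experiments, the edgeR calls of *Cdk1* and *Nsmce1* were also lost in several such fits. Examples are the fits without shLuci library 2 or shRad21 library 2 of the culture, or without shRad21 library 1 in vivo.

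**Figure D5:**
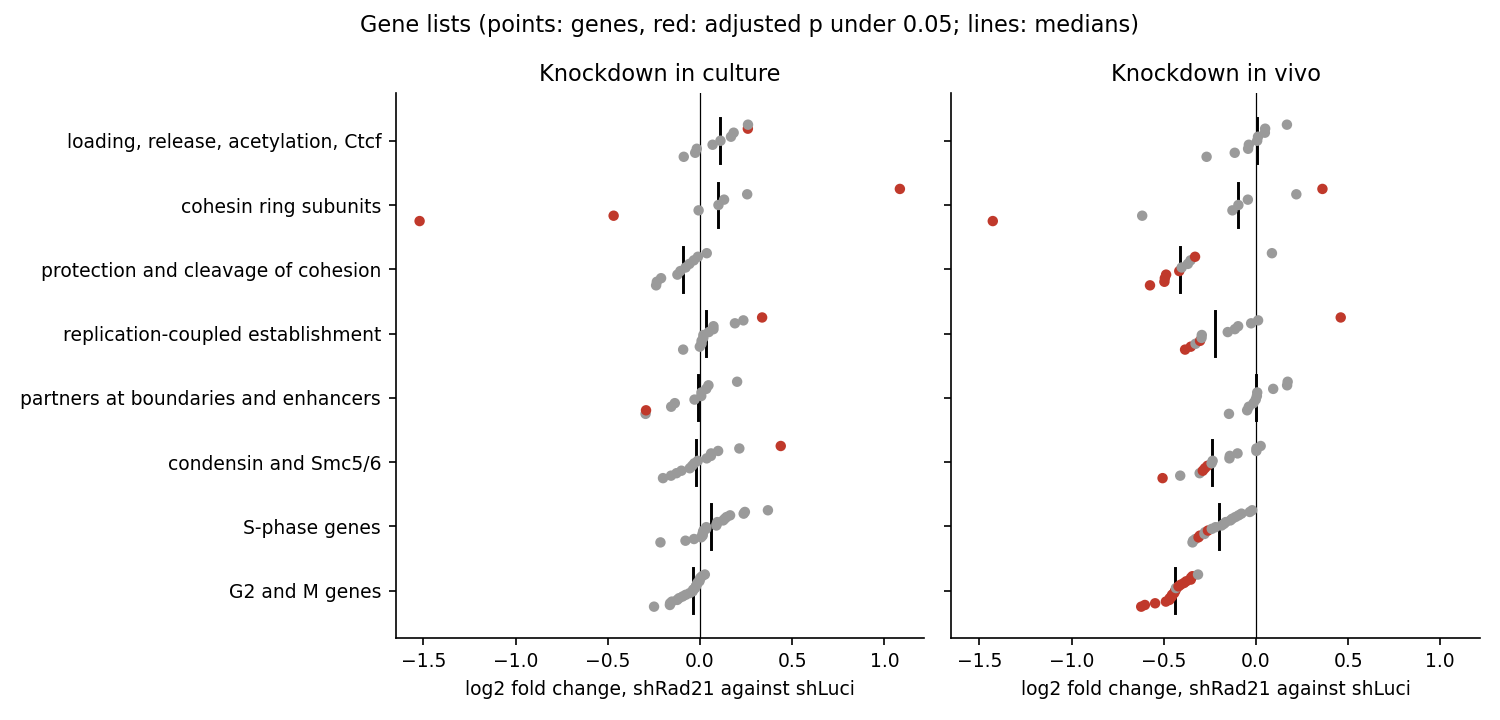
Log2 fold changes of shRad21 against shLuci (x axis) for the tested genes of each list (points) with list medians (lines), in culture and in vivo. Red marks an adjusted p under 0.05. The 20 G2 and M genes all lie below 0 in vivo, with a median of -0.44, and the 9 genes of loading, release, acetylation, and *Ctcf* (top row) are centered at 0.11 in culture and 0.0071 in vivo.

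Likeness of pattern was measured by Pearson's r of log2 CPM over the 12 libraries after the mean of each experiment was subtracted. It is a description, since the points share libraries and the knockdown. The genes most like *Ctcf* were *Syne2* (r = 0.932), *Nrip1* (0.924), and *Zbtb8a* (0.922), and those most like *Esco2* were *Il17ra* (0.962), *Kdm3b* (0.952), and the condensin gene *Ncaph* (0.941). Those most like *Nipbl* were *Gcc2*, *Bbs4*, and *Nsrp1* (between 0.929 and 0.941), those most like *Mau2* were *Ccdc186*, *Mavs*, and *Setd7* (between 0.912 and 0.941), and those most like *Wapl* were *Gm12475*, *Dennd5a*, and *Gvin1* (between 0.921 and 0.957). *Pds5b* was most like *Dpp8*, *Stk11ip*, and *Rbl1* (between 0.917 and 0.950), *Esco1* like *Nudt17*, *Ankrd13c*, and *Klhl9* (between 0.926 and 0.932), and *Hdac8* like 3 unnamed gene models (between 0.847 and 0.873). None of the 9 genes was among the 3 most like another. Between the 9 genes themselves, r was highest for *Nipbl* and *Pds5a* (0.741), *Pds5a* and *Ctcf* (0.698), and *Pds5a* and *Pds5b* (0.692), and lowest for *Mau2* and *Hdac8* (-0.611) and *Esco1* and *Esco2* (-0.585).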

How the data were processed

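The authors removed rRNA reads, mapped the rest to GRCm38 with TopHat2 2.0.11 and deposited raw counts per gene from HTSeq 0.6.1. These counts, from 12 libraries, were used as deposited, and groups and replicate numbers were taken from the labels. Identifiers were matched to GENCODE M21 (45229 of 46078). Counts were scaled by TMM and tested with edgeR's quasi-likelihood test (edgeR 4.0.16, R 4.3.3) after filterByExpr (10 counts), with Benjamini-Hochberg adjustment over all genes tested and a threshold of 0.05. The knockdown was tested within each experiment, and the control cells and the difference between experiments in a model of all 12 libraries. CPM and RPKM were set with TMM over 12 libraries.

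The fits were tested on simulated data. Alternatives were DESeq2 1.42.0, other scalings and filters, other samples in the fit, a replicate block, and each library left out. The 9 genes, gene lists, and tests were chosen with earlier results of these data known. Genes outside the 9 were named when they were *Rad21*, were among the 4 of their list with the lowest p past the threshold, or were among the 3 most like one of the 9, and cell type markers where a label was checked. Ring genes and a *Ctcf* paralog too low to test, and genes that passed with the replicate block but not in the main fit, were named after their values were seen. The genes most like *Pds5a* are not reported here. Same-numbered libraries deviated together in culture (r between 0.216 and 0.262) and not in vivo (r between 0.0236 and 0.0695), so the numbers may pair the culture libraries. The sources describe no pairing. The main fits were therefore unpaired, and the fit with the replicate block is given beside them as an alternative.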

Additional observations from a re-analysis of the deposited data

Results flagged for a closer look

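*Ctcf* was picked out because its response to the knockdown differed between the 2 experiments by the test of the difference itself, with a change in culture minus that in vivo of 0.382 on the log2 scale. It was higher in shRad21 in all 3 culture libraries than in all controls, and lower in all 3 in vivo libraries, although the change in vivo did not pass its own test. The call for the difference was lost in 6 of 12 fits without 1 library, and without a filter on low counts (adjusted p = 0.091 by edgeR). The experiments also differed in kit, gate, and lane, which cannot be told apart from the setting.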

How the results depend on the processing

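The 36 results of the 9 genes (4 comparisons each) were recomputed under 13 or 18 other settings per comparison, which gave 558 values. Of these values, 508 kept their direction and side of the threshold, 21 lost and 6 gained a call, and 23 changed sign. With the replicate block, 2 genes (*Esco1*, *Ctcf*) passed in culture in place of 1. *Esco1* gained its call (0.265), while all genes called rose from 2213 to 3186. The block changed no other call of the 9 genes, 20 in place of 18 G2 and M genes fell in vivo, and *Stag2* and *Ccne2* passed in culture. A replicate block within each experiment kept the *Ctcf* call for the difference (0.383, adjusted p = 0.033 by edgeR). The comparison of control cells was not fitted with a block. Without a filter 0 genes passed for the difference between the experiments (*Ctcf* 0.362, adjusted p = 0.091), where 32923 genes were tested and 1409 called in place of 796 (1294 by DESeq2), and 2829 in place of 1749 were called in vivo. Sign changes were seen for *Esco2* in culture (0.00605 by library size only, 0.00206 without a filter), *Mau2* and *Hdac8* in vivo in 1 model of 12 libraries (-0.00546 and -0.00795), and *Ctcf* in control cells (-0.0227 by library size only). With 1 library left out, genes called ranged from 1352 to 2817 in culture, from 951 to 1562 in vivo, and from 492 to 845 for the difference; of the 9 genes, 0 to 2 passed in culture, 0 in vivo, and 0 to 1 for the difference. Log2 fold changes then ranged from -0.0874 to 0.0422 (*Wapl*), 0.134 to 0.238 (*Pds5a*), -0.0666 to 0.0532 (*Esco2*), and 0.225 to 0.301 (*Ctcf*) in culture; from -0.00941 to 0.0953 (*Nipbl*), -0.0576 to 0.105 (*Mau2*), -0.145 to 0.0195 (*Pds5b*), and -0.087 to 0.0861 (*Hdac8*) in vivo; from -0.229 to -0.0725 (*Hdac8*) and 0.12 to 0.196 (*Ctcf*) in control cells; and from -0.00956 to 0.139 (*Nipbl*), -0.0324 to 0.144 (*Mau2*), -0.0444 to 0.0841 (*Wapl*), -0.156 to 0.0016 (*Hdac8*), and 0.344 to 0.42 (*Ctcf*) for the difference. Control differences that gained a call were *Hdac8* (-0.26 by upper-quartile factors, -0.316 by library size only) and *Esco1* (-0.274 by library size only), both scalings that shift all genes down, and *Hdac8* without the third shLuci library in vivo (-0.229). The cause of these changes was not tested. Between pairs of replicate libraries, the spread was beyond counting error, with a chi-square per degree of freedom between 6.16 and 22.6. This was not computed for each of the 9 genes. *Hdac8* in cultured shLuci cells had an SD of only 2.05% of its mean, on between 435 and 646 counts.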
